A study of Mus musculus with 6 samples.

Results

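The 10 Sox genes described here were measured in primary mouse keratinocytes, which make up most of the epidermis, after loss of *Sox4*, of *Sox11* or of both. They were *Sox4*, *Sox11* and *Sox12* of the SoxC group, and *Sox2*, *Sox6*, *Sox7*, *Sox9*, *Sox13*, *Sox15* and *Sox21* of other groups. They were found by the RefSeq accession that the array files give for each probe, which led to 13 probes of 10 genes among 55681 probes and 21368 named genes. *Sox4*, *Sox11* and *Sox21* had 2 probes each, and the brighter one of each pair over all arrays is called the first probe. The question asked of them was whether each targeted gene was lost in its own knockout, and whether another Sox gene was higher where a SoxC gene was missing.

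Sox proteins are transcription factors that bind the minor groove of DNA through an HMG box and bend it there. The letters ACAAT, or ATTGT on the other strand, are the core of the sites they favour. *Sox4*, *Sox11* and *Sox12* encode close relatives that are known for overlapping roles in progenitor cells of many embryonic tissues, so that loss of one is often milder than loss of several. Among the other groups, *Sox9* is known in skin for its role in hair follicle stem cells, *Sox2* in the dermal papilla and in pluripotent cells, and *Sox21* in the hair shaft.

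The cells came from newborn pups bred from a floxed stock of mixed 129SvEx:C57BL/6 background and from FVB/N mice. Per the study's methods, floxed alleles were removed by *Krt14-Cre*, a recombinase driven by the promoter of a basal keratin gene and carried on FVB/N, so deletion is limited to cells in which that promoter has been active. Sox4 cKO and Sox11 cKO cells lacked 1 gene each, and dcKO cells carried *Krt14-Cre* with both floxed genes (*Sox4* fl/fl and *Sox11* fl/fl). The mouse stock crossed to make them also carried *Sox12*-/-, and the labels do not give the *Sox12* genotype of the cells on these arrays or the alleles of the wild-type cells. Cells were cultured on J2 fibroblast feeders and later passaged off them. No treatment is named. There were 2 arrays for each of the 3 knockout genotypes, and each of the 6 arrays carried knockout RNA in one dye channel and wild-type RNA in the other. The labels call the arrays biological replicates, but do not say whether the wild-type RNAs came from separate cultures or from a shared pool. The p-values rest only on the spread between these arrays, pooled over the 3 genotypes and moderated toward that of all probes.

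Every ratio below is log2 of knockout over wild type on the same array, and every level is a normalised log2 intensity of 1 channel. A change was called where limma's Benjamini-Hochberg adjusted p was below 0.05 and the absolute log2 change was above 1.5. Per array, 35.1% to 42.8% of the probes stood well above background in knockout RNA and 37.3% to 45.0% in wild-type RNA. All 6 markers of basal keratinocytes were well above background in all 12 channels. Fibroblast markers, which feeder cells would carry, reached that mark for at most 2 of 6 genes in any channel. Of 4 endothelial and 4 immune markers, 2 in each list reached it in all 12 channels, so the mark alone does not identify a cell type. In bulk RNA, fewer cells that express a gene and less of its RNA per cell cannot be told apart.

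*Sox4* fell in both genotypes in which it was targeted and kept a measurable remainder. In Sox4 cKO cells the first probe gave ratios of -2.49 and -2.54 on replicates 1 and 2, and in dcKO cells -2.23 and -2.81. In Sox11 cKO cells its ratios were 0.06 and -0.35. The wild-type level of this probe lay between 9.49 and 10.34 over the 6 arrays, with a mean of 9.85 ± 0.30 (SD, n = 6). All 4 channels of *Sox4*-deleted cells lay below every wild-type channel, at levels of 7.36 and 7.50 in Sox4 cKO and 7.26 and 6.86 in dcKO cells, and all 4 were still well above background.

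The fitted change of *Sox4* was -2.52 ± 0.04 (SD, n = 2) for Sox4 cKO, with a limma adjusted p of 0.00400, and -2.52 ± 0.41 (SD, n = 2) for dcKO, with a limma adjusted p of 0.00106. These changes leave 17.5% of the wild-type signal in Sox4 cKO cells (95% interval 13.5% to 22.6%) and 17.4% in dcKO cells (13.5% to 22.4%). The second *Sox4* probe gave -2.64 in Sox4 cKO cells (limma adjusted p = 0.00492), with knockout RNA well above background on 1 of 2 arrays. In dcKO cells its signal did not stand well above background, and the fall to that dim level was 4.39-fold. The fitted change was -2.13 (95% interval -2.54 to -1.73; limma adjusted p = 0.00273). Where the probes lie relative to the deleted part of each gene is not given in the sources used here, so the remainder cannot be assigned to undeleted cells or to RNA from a recombined allele. Both *Sox4* probes were called in Sox4 cKO cells, 2 of 13 Sox probes, where 0.14% of all probes were called. The call did not hold when Sox4 cKO replicate 1 (log2 change -2.30, limma adjusted p = 0.142) or replicate 2 (-2.74, adjusted p = 0.106) was left out, nor with an offset of 50 (-2.29, adjusted p = 0.117) or with Feature Extraction's processed signals (-2.82, adjusted p = 0.580). In dcKO cells it was lost only with the processed signals (-2.72, limma adjusted p = 0.158). That setting called 0 of 55681 probes in every genotype.

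*Sox11* fell most of all 10 genes, in Sox11 cKO and in dcKO cells. The ratios of its first probe were -3.31 and -2.65 in Sox11 cKO cells and -3.07 and -3.79 in dcKO cells. Its level dropped from 10.38 to 7.07 and from 8.49 to 5.84 on the Sox11 cKO arrays, and from 10.38 to 7.31 and from 9.73 to 5.94 on the dcKO arrays. The knockout channels of all 4 arrays lay below the lowest wild-type level, 8.49, and wild-type cells ran from there to 10.74.

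The fitted change of *Sox11* was -2.98 ± 0.47 (SD, n = 2) for Sox11 cKO, with a limma adjusted p of 0.0417, and -3.43 ± 0.51 (SD, n = 2) for dcKO, with a limma adjusted p of 0.00664. This left 12.7% of the wild-type signal in Sox11 cKO cells (95% interval 7.18% to 22.4%) and 9.28% in dcKO cells (5.26% to 16.4%). The second *Sox11* probe no longer stood well above background in either genotype. Down to the dim level it was 6.53-fold lower in Sox11 cKO cells, which was not called (95% interval of the fitted change -3.75 to -1.81; limma adjusted p = 0.0946). In dcKO cells it was 8.68-fold lower, which was called (95% interval of the fitted change -4.09 to -2.15; limma adjusted p = 0.0150). Of the 13 Sox probes, 1 was called in Sox11 cKO cells, beside 0.0862% of all probes, and 4 in dcKO cells, beside 0.756%.

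The call of *Sox11* in Sox11 cKO cells was lost without dcKO replicate 1 or dcKO replicate 2 (log2 change -2.98, limma adjusted p = 0.0962 in both cases). With Sox11 cKO replicate 1 left out the change was -2.02, and with Sox11 cKO replicate 2 left out it was -3.94. Such a fit takes its dye effect from the arrays of the other genotypes, so its value can lie outside the ratios of both arrays. In dcKO cells the call was lost without replicate 1 (-3.51, limma adjusted p = 0.140) or replicate 2 (-3.35, adjusted p = 0.151). With an offset of 50 the changes of *Sox11* were -2.57 in Sox11 cKO (limma adjusted p = 0.380) and -2.95 in dcKO cells (0.0917), and with Feature Extraction's processed signals -3.58 (0.626) and -4.12 (0.186), none of which was called. In Sox11 cKO cells the *Sox11* call was also lost without the replicate block (limma adjusted p = 0.0978), with the dye effect subtracted first (0.0821), with dim probes filtered (0.0844), with only the Sox11 cKO arrays fitted (0.255) and with the mean over both probes (-2.88, adjusted p = 0.0654).

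Neither SoxC gene was called higher where the other was deleted. *Sox11* in Sox4 cKO cells gave 0.82 on replicate 1 and -0.97 on replicate 2, in opposite directions. The knockout levels of these arrays were close, at 9.50 and 9.78, and the wild-type levels were 8.68 and 10.74. The fitted change was -0.07 with a 95% interval from -0.89 to 0.75 (limma adjusted p = 0.984), which does not exclude a rise to 1.68-fold, and it was 0.81 without replicate 2 and -0.95 without replicate 1. The second *Sox11* probe did the same, with 0.86 and -1.07.

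*Sox4* in Sox11 cKO cells was measured more closely. Its knockout levels of 10.39 and 9.32 stood against 10.34 and 9.67 in wild type. The fitted change was -0.15 with a 95% interval from -0.52 to 0.22 (limma adjusted p = 0.968), and the upper limit corresponds to a 1.16-fold rise. The second *Sox4* probe gave -0.06 (95% interval -0.47 to 0.35; limma adjusted p = 0.993), with an upper limit of 1.27-fold. With the channels of each array fitted separately, the change of that probe was 0.13 with a 95% interval from -0.38 to 0.64.

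**Figure D1:**
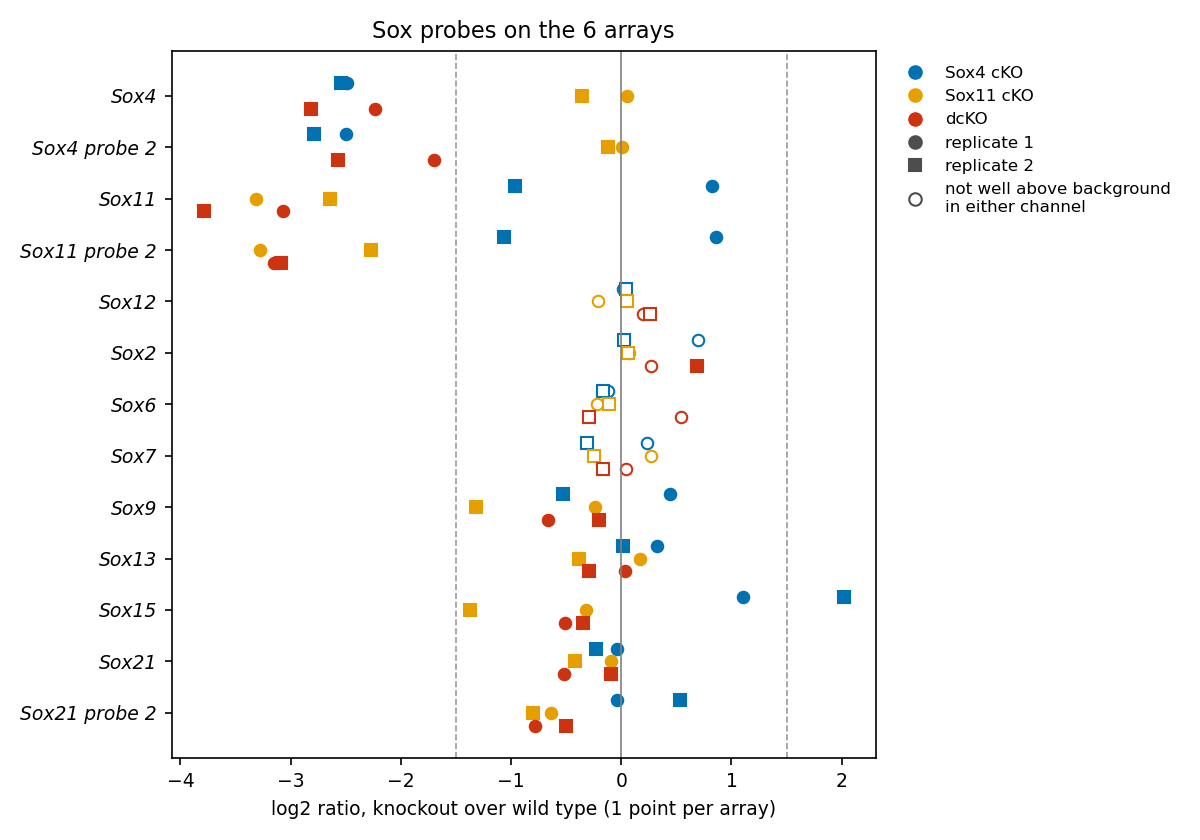
Log2 ratio of knockout over wild type (x axis) for each of the 13 Sox probes (y axis), with 1 point per array, coloured by genotype and shaped by replicate; open points mark probes not well above background in either channel, and dashed lines mark ±1.5. The first *Sox4* probe lies between -2.81 and -2.23 in Sox4 cKO and dcKO cells, the first *Sox11* probe between -3.79 and -2.65 in Sox11 cKO and dcKO cells, and no probe of the other 8 genes lies outside ±1.5 except *Sox15* on Sox4 cKO replicate 2, at 2.02.

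The loss of each gene was also set against its loss in dcKO cells. The dcKO and Sox4 cKO changes of *Sox4* differed by -0.01 (95% interval -0.53 to 0.51; limma adjusted p = 0.996), and the dcKO and Sox11 cKO changes of *Sox11* by -0.45 (-1.61 to 0.71; limma adjusted p = 0.869). As a check on the labels, *Sox11* was lower in dcKO than in Sox4 cKO cells by a log2 difference of -3.36 (limma adjusted p = 0.0408), 1 of 13 Sox probes called where 0.562% of all probes were. *Sox4* was lower in dcKO than in Sox11 cKO cells by -2.38 (limma adjusted p = 0.0129). Both *Sox4* probes were called there, with 0.449% called over all probes. No Sox probe was called between Sox4 cKO and Sox11 cKO cells, where 0.0108% of all probes were. The *Sox4* difference of -2.37 had a limma adjusted p of 0.0545, and 6 of 13 Sox probes had an unadjusted p below 0.05, beside 6.35% of all probes. Among these 6 were both probes of *Sox4* and both of *Sox11*, which differ by design since each gene was deleted in 1 genotype of the pair. The others were *Sox15* and the second *Sox21* probe. For the departure of dcKO cells from the sum of both single changes, 0 Sox probes were called by limma, with 0 at an unadjusted p below 0.05, beside 0.329% called and 10.8% at that unadjusted p over all probes.

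*Sox12*, the third member of the SoxC group, stood well above background in 0 of 12 channels. Its ratios ran from -0.21 to 0.26, and the fitted changes were 0.03 in Sox4 cKO, -0.08 in Sox11 cKO and 0.23 in dcKO cells. At this brightness a ratio says little about the RNA, and what the probe shows is that *Sox12* did not reach a measurable signal when *Sox4*, *Sox11* or both were deleted.

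The probes of *Sox2*, *Sox6* and *Sox7* were at background as well. *Sox6* encodes a SoxD protein that lacks an activation domain of its own, and *Sox7* a SoxF protein best known from blood vessel endothelium. Neither was well above background in any channel, with ratios from -0.29 to 0.55 for *Sox6* and from -0.32 to 0.27 for *Sox7*. *Sox2*, a SoxB1 gene of pluripotent and neural progenitor cells, was well above background in 1 of 12 channels, the knockout channel of dcKO replicate 2. The ratios of *Sox2* were 0.69 and 0.02 in Sox4 cKO, 0.07 and 0.06 in Sox11 cKO and 0.27 and 0.69 in dcKO cells, so that it was above 0 on 6 of 6 arrays. For *Sox2* in dcKO cells the fitted change was 0.48, which was not called (limma adjusted p = 0.371). It was 0.86 without dcKO replicate 1 and 0.10 without dcKO replicate 2. Since only 1 of 2 knockout channels there stood well above background, and no wild-type channel did, these values do not establish a rise.

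**Figure D2:**
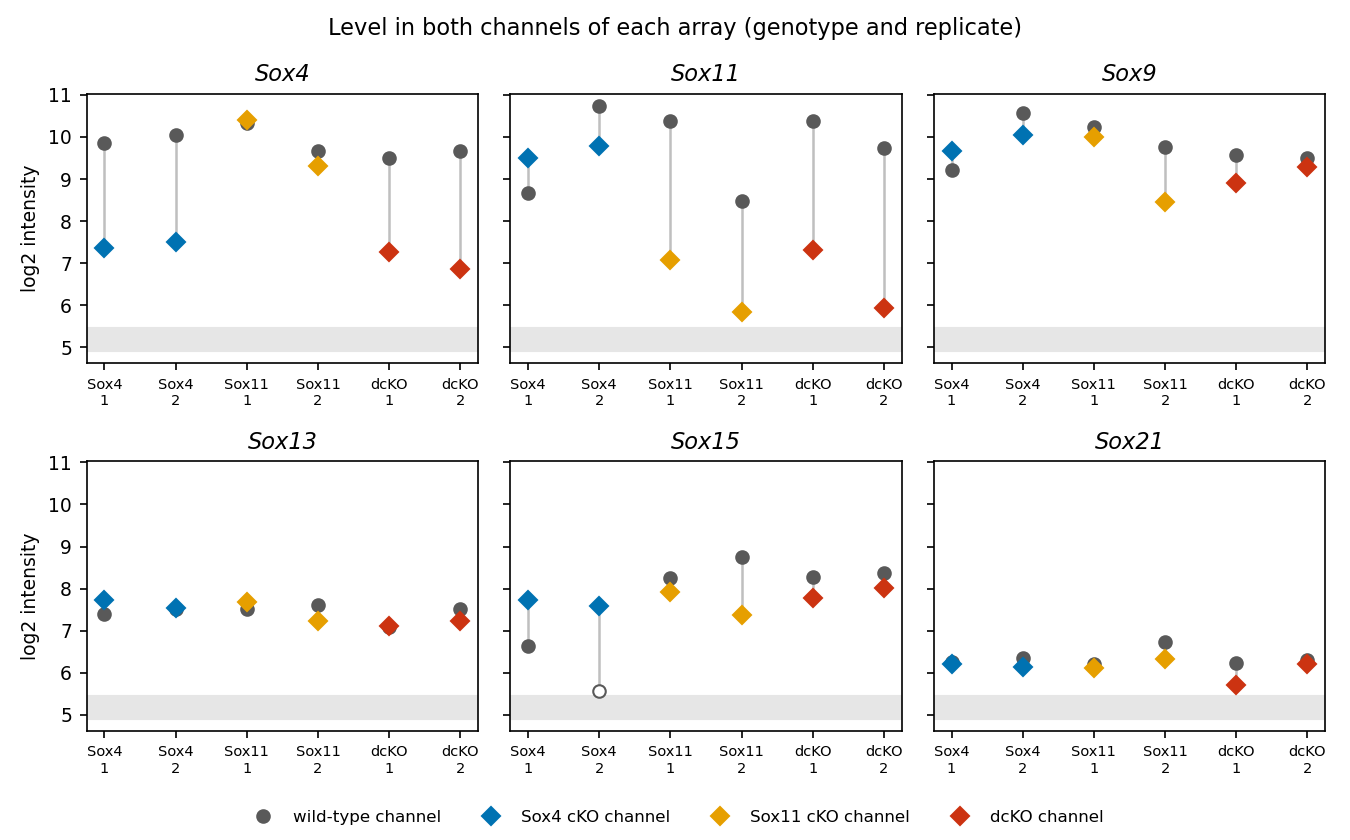
Normalised log2 intensity (y axis) of the wild-type channel (grey circle) and the knockout channel (coloured diamond) of each array, ordered by genotype and replicate (x axis), for the first probe of the 6 Sox genes with measurable signal; open symbols were not well above background, and the grey band spans the lowest level of a probe well above background over the 12 channels. For *Sox15* the wild-type circles of the 2 Sox4 cKO arrays lie at 6.63 and 5.56, below those of the other 4 arrays, and all 6 diamonds lie between 7.38 and 8.01.

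*Sox15*, a SoxG gene known from muscle precursors and pluripotent cells, had the largest fitted change among the 8 untargeted Sox genes. Of the 8 member genes with a promoter window in the RefSeq table, 2 hold ACAAT or ATTGT in the 250 bases before a transcription start, on either strand. These are *Sox6*, in 3 of its 6 windows, and *Sox15*. Counted by window, 4 of 13 member windows hold a match, beside 27.7% of all 32851 windows in the table. The *Sox15* window is shown because that gene's ratio moved most without being targeted. It lies at chr11:69654787-69655036 of GRCm38.p6 on the + strand and is printed 5′ to 3′, with the match in capitals 198 bases before the start.
Sox15: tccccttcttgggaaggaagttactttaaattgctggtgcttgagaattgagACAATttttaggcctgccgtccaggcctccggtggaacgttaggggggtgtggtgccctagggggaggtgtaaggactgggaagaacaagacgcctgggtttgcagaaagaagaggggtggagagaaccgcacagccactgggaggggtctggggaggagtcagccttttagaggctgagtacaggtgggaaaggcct
The windows of *Sox4*, *Sox11*, *Sox12*, *Sox2*, *Sox13* and *Sox21* hold no match. A match is only a run of letters, and binding was not measured here.

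The ratios of *Sox15* were 1.11 and 2.02 in Sox4 cKO cells, -0.32 and -1.37 in Sox11 cKO cells and -0.51 and -0.35 in dcKO cells. Both Sox4 cKO arrays lay above 0 and the other 4 arrays below it. The levels behind these ratios differed more in wild-type than in knockout cells. In Sox4 cKO cells the knockout levels were 7.74 and 7.58, within the 7.38 to 8.01 spanned by all 6 knockout channels. The wild-type levels on the same arrays were 6.63 and 5.56, the latter not well above background, whereas wild-type cells on the other 4 arrays had 8.24, 8.75, 8.28 and 8.36. All 6 knockout channels thus fell inside the range of the wild-type channels.

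The fitted change of *Sox15* in Sox4 cKO cells was 1.56 ± 0.65 (SD, n = 2; 95% interval 0.88 to 2.25; limma adjusted p = 0.179), which was not called. It was called with the authors' log2 ratios (limma adjusted p = 0.0358), in a fit to the Sox4 cKO arrays alone (0.00263), and without Sox11 cKO replicate 1 or Sox11 cKO replicate 2 (0.00189 for each). Without Sox4 cKO replicate 2 the change was 0.88, and without replicate 1 it was 2.24. A fit of separate channels, which weighs comparisons within and between arrays, gave 0.99 with a 95% interval from -0.17 to 2.15 (limma adjusted p = 0.595). That setting was added after the data were seen.

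In the other genotypes *Sox15* was not called either. Its change was -0.85 in Sox11 cKO cells (95% interval -1.54 to -0.16; limma adjusted p = 0.572) and -0.43 in dcKO cells (-1.12 to 0.26; limma adjusted p = 0.664). The Sox11 cKO value rests on replicate 2, since without replicate 1 it became -1.64 and was called (limma adjusted p = 0.0128), and without replicate 2 it was -0.05. The dcKO change lay below the Sox4 cKO change by -2.00 (95% interval -2.97 to -1.02; limma adjusted p = 0.0971).

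*Sox9*, the SoxE gene of hair follicle stem cells, was well above background in every channel and was not called in any genotype. Its ratios were 0.44 and -0.53 in Sox4 cKO, -0.24 and -1.32 in Sox11 cKO and -0.67 and -0.20 in dcKO cells. Wild-type levels ran from 9.22 to 10.57, and 4 of 6 knockout levels lay inside that range. The fitted changes were -0.04 in Sox4 cKO (95% interval -0.67 to 0.58), -0.78 in Sox11 cKO (-1.40 to -0.15; limma adjusted p = 0.560) and -0.43 in dcKO cells (-1.05 to 0.19; limma adjusted p = 0.611). The dcKO fit gave 0.31 without replicate 1 and -1.18 without replicate 2, although both dcKO arrays read below 0. The dye effect of these fits came from the arrays of the other genotypes. With median centring the dcKO change was -0.96 (limma adjusted p = 0.0960).

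*Sox13*, another SoxD gene, was not called in any genotype. Its wild-type levels ran from 7.08 to 7.60 and its knockout levels from 7.11 to 7.72. The ratios were 0.32 and 0.02 in Sox4 cKO, 0.17 and -0.38 in Sox11 cKO and 0.03 and -0.29 in dcKO cells. The fitted changes of 0.17, -0.10 and -0.13 had 95% intervals from -0.17 to 0.51, -0.45 to 0.24 and -0.47 to 0.21. With median centring the dcKO change was -0.53, outside that interval (limma adjusted p = 0.0972).

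*Sox21*, a SoxB2 gene whose loss is known to disturb the hair shaft cuticle, was below its wild-type channel on 6 of 6 arrays by its first probe, in each case by 0.52 or less. The fitted changes were -0.13 in Sox4 cKO, -0.26 in Sox11 cKO and -0.31 in dcKO cells, with limma adjusted p of 0.919, 0.904 and 0.570. Its second probe gave 0.25 in Sox4 cKO, -0.72 in Sox11 cKO and -0.64 in dcKO cells, so the probes differed in sign in Sox4 cKO cells. None of these changes was called (lowest limma adjusted p of the second probe 0.132, in dcKO cells).

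Over the 8 untargeted Sox genes, 0 were called by limma in Sox4 cKO, Sox11 cKO or dcKO cells. By their first probes, 1, 2 and 1 of the 8 had an unadjusted limma p below 0.05, beside 7.4%, 6.84% and 13% of all probes. The second *Sox21* probe, outside this count, was below 0.05 in Sox11 cKO and dcKO cells. Called higher were 0.0395% of all probes in Sox4 cKO, 0.018% in Sox11 cKO and 0.312% in dcKO cells. The median change of the 8 genes was -0.0042 in Sox4 cKO, -0.14 in Sox11 cKO and -0.10 in dcKO cells, beside 0.0015, -0.0017 and -0.0035 over all probes. In dcKO cells, the genotype with both SoxC genes deleted, *Sox2* and *Sox12* were above 0 on both arrays, as were 27.5% of all probes, and were at or near background. The 4 measurable genes *Sox9*, *Sox13*, *Sox15* and *Sox21* had fitted changes from -0.43 to -0.13 there by their first probes. With median centring they were lower, at -0.96, -0.53, -0.90 and -0.53 (limma adjusted p from 0.0960 to 0.130), and none was called. Without dcKO replicate 1 the fit gave 0.31 for *Sox9* and 0.03 for *Sox21*, whereas the dcKO array left in read -0.20 and -0.10. The highest upper limit of a 95% interval among the untargeted genes was 0.95 in dcKO cells, that of *Sox2*, and 2.25 in Sox4 cKO cells, that of *Sox15*. The dcKO limit does not hold under other processing, since with Feature Extraction's processed signals the dcKO change was 1.83 for *Sox2* (limma adjusted p = 0.252) and 1.09 for *Sox12* (0.266).

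**Figure D3:**
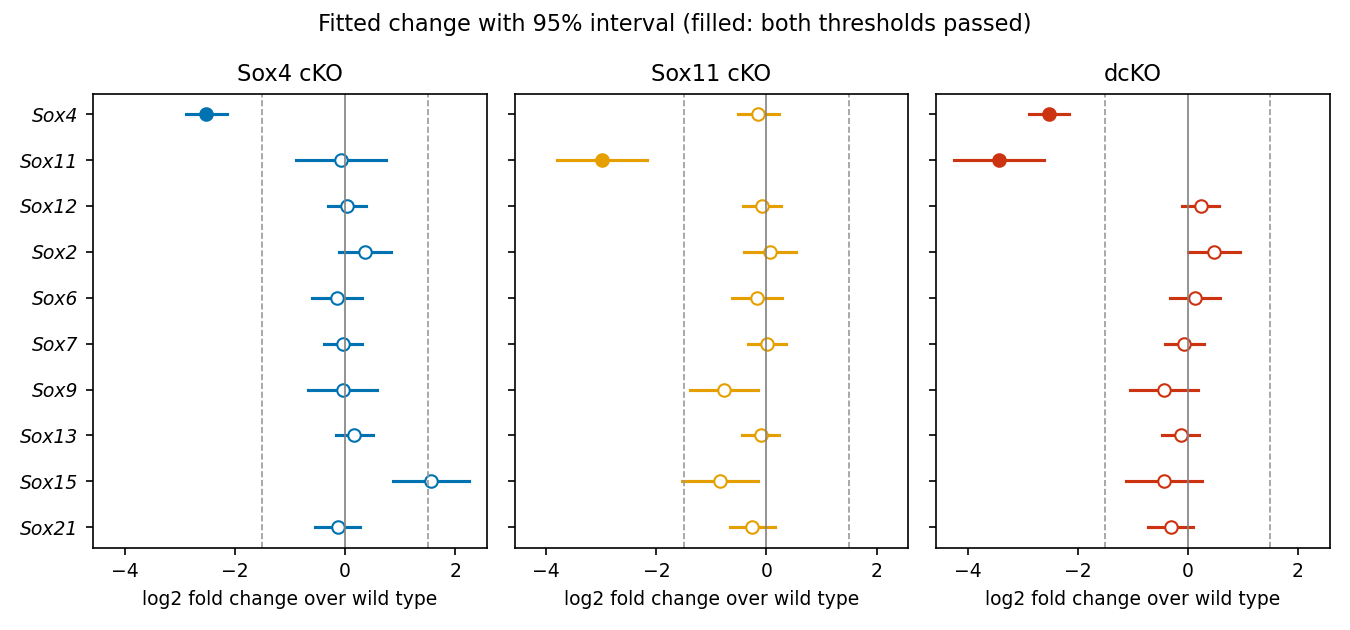
Fitted log2 change over wild type (x axis) of the first probe of each Sox gene (y axis) in the 3 genotypes, with bars for the 95% interval of the limma model; filled points passed both thresholds and dashed lines mark ±1.5. Filled points stand only at *Sox4* in Sox4 cKO, at *Sox11* in Sox11 cKO and at both in dcKO cells.

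A further 10 Sox genes had a probe on the array (*Sox1*, *Sox3*, *Sox5*, *Sox8*, *Sox10*, *Sox14*, *Sox17*, *Sox18*, *Sox30* and *Sry*). Of these, 4 were well above background in any channel and only *Sox5*, a SoxD gene related to *Sox6*, in all 12. None of the 10 was called in any genotype, beside 0.14%, 0.0862% and 0.756% of all probes in Sox4 cKO, Sox11 cKO and dcKO cells. In dcKO cells the largest values were -0.25 for *Sox1* and 0.21 for *Sox3*. The change of *Sox5* was 0.14, -0.05 and -0.15 in Sox4 cKO, Sox11 cKO and dcKO cells.

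The list of known SoxC target genes held 4, *Tead2*, *Tubb3*, *Dcx* and *Prox1*. *Dcx* and *Prox1*, genes of young neurons and of lymphatic endothelium, were at background in all channels. *Tead2*, a partner factor in Hippo signalling, gave -1.90 and -2.79 in dcKO cells, and its change of -2.34 was called there (limma adjusted p = 0.00586). Over all probes 0.756% were called in dcKO cells. In Sox4 cKO cells its arrays gave 0.07 and -1.22, and in Sox11 cKO cells -0.15 and -0.06. *Tubb3*, a neuronal tubulin, had an adjusted p of 0.0393 in dcKO cells at a change of -1.01, short of the fold threshold, and -1.14 in Sox11 cKO cells (limma adjusted p = 0.107). The medians of the list were -0.47, -0.06 and -0.55 in Sox4 cKO, Sox11 cKO and dcKO cells.

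SOX proteins often bind DNA next to a POU protein. Of 7 POU genes, 0 were called by limma and 4 were well above background in any channel. The shares called over all probes were 0.14%, 0.0862% and 0.756% in Sox4 cKO, Sox11 cKO and dcKO cells. The largest dcKO values were 1.03 for *Pou3f1*, a POU factor of differentiating epidermis (limma adjusted p = 0.163), and -0.48 for *Pou2f1*, which is widely expressed (limma adjusted p = 0.262). *Pou3f1* gave 0.49 and 1.56 on the dcKO arrays and -1.29 and 0.99 on the Sox4 cKO arrays.

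Of 7 hair follicle stem cell genes known alongside *Sox9*, 1 was called against wild type, in Sox4 cKO cells, where 0.14% of all probes were. *Krt15*, a keratin of basal and bulge cells, fell in Sox4 cKO cells by 1.58, with ratios of -1.52 and -1.64 (limma adjusted p = 0.0245). Its knockout levels there were 8.15 and 6.17, against 9.67 and 7.81 in wild type on the same arrays. Wild-type cells on the other arrays had 5.68, 10.59, 6.17 and 6.70, so both knockout levels lay inside the wild-type range. In dcKO cells its ratios were 0.88 and 0.81, and the fitted value of 0.85 had a limma adjusted p of 0.0432 but did not reach the fold threshold. *Lhx2* and *Lgr5*, which mark the bulge and its neighbourhood, were at background in every channel.

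Among the marker lists of other cells, 1 held a called gene. Of 5 Merkel cell markers, *Krt18* was called in dcKO cells, at -4.03 (limma adjusted p = 0.000800), where 0.756% of all probes were called. Its change was 1.59 in Sox4 cKO (limma adjusted p = 0.0559) and 1.08 in Sox11 cKO cells (0.193). *Krt20*, of the same list, went the other way in dcKO cells, with ratios of 1.11 and 1.31 and a fitted value of 1.21 (limma adjusted p = 0.0336), short of the fold threshold. *Krt8* had -1.02 there (limma adjusted p = 0.0886). *Krt18* and *Krt8* are also keratins of simple epithelia. *Atoh1* and *Isl1*, which define Merkel cells, were well above background in 0 of 12 channels, so the list does not show that Merkel cells were present. The summed intensity of the list was 820 to 912 in dcKO, 13147 to 18792 in Sox4 cKO, 3636 to 62992 in Sox11 cKO and 2111 to 31380 in wild-type channels. Its part in the Sox values was not tested. Melanocyte markers summed to 295 to 1163 in wild-type channels, and 0 of 6 were called in any genotype, beside at most 0.756% of all probes.

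The genes whose ratios over the 6 arrays ran most like that of *Sox4*, by Pearson's r among 1013 named genes, were *Armcx3* (0.984), *Slc18b1* (0.975), *Shroom1* (0.972), *H2-M3* (0.963) and *Armcx1* (0.958). *Armcx3* was called in Sox4 cKO cells at -2.16 and in dcKO cells at -2.33, and *Armcx1* in dcKO cells at -1.58. For *Sox11* they were *Prdx4* (0.989), *Pcolce2* (0.955), *Acsbg1* (0.955), *Dusp9* (0.941) and *Mest* (0.934). *Prdx4* and *Acsbg1* were called higher in Sox4 cKO cells, at 2.87 and 1.93, and had -0.13 and -0.73 in dcKO cells. *Mest* and *Pcolce2* were called lower in dcKO cells, at -2.19 and -1.58. These correlations describe 6 arrays, in pairs of the same genotype, and compare the pattern and not the size of the ratios.

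**Figure D4:**
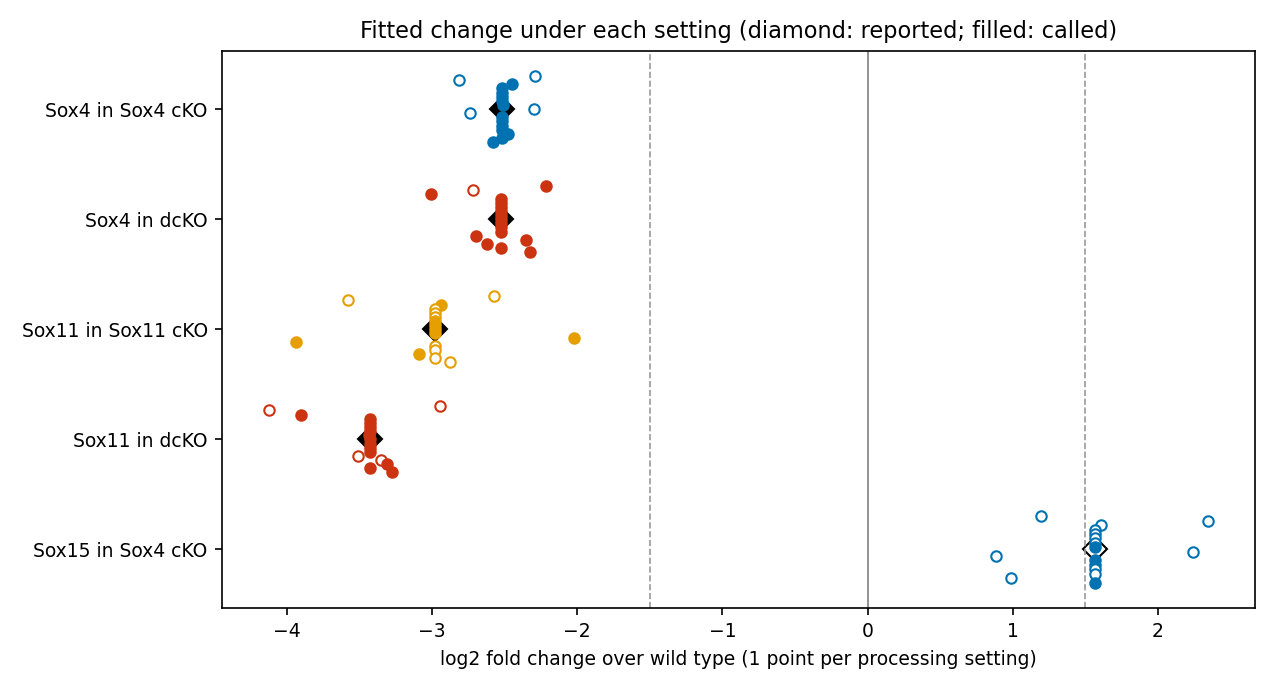
Fitted log2 change over wild type (x axis) of *Sox4*, *Sox11* and *Sox15* in the named genotype (y axis), with 1 point per processing setting; the diamond is the reported value, and filled points were called. The 5 values plotted kept their direction. *Sox11* in Sox11 cKO cells was called under 8 of 17 alternatives, *Sox4* in Sox4 cKO and *Sox11* in dcKO cells under 13 of 17 each, *Sox4* in dcKO cells under 16 of 17, and *Sox15* in Sox4 cKO cells, not called in the reported fit, under 4 of 16.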

How the data were processed

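RNA of knockout and wild-type keratinocytes was compared on 6 two-colour arrays, grouped by the genotype in the sample titles, with 2 arrays per genotype. The authors extracted linear spot intensities, not normalised, from the scans (Agilent Feature Extraction 11.0.1.1, per the submitters' processing notes), and the deposited files give them with flags for spots well above background and for outliers. The authors also deposited a table of normalised log2 ratios, which correlated positively with knockout over wild type on all 6 arrays and was used only as an alternative.

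Median intensities were background corrected in R 4.3.3 with limma 3.58.1 (normexp, offset 16, as in the study's methods). Each array held 62976 spots; 3671 controls were removed, and 194 to 288 outlier spots per array were set to missing. After loess normalisation, spots of a probe were averaged, leaving 55681 probes. Levels of single channels were taken after Aquantile normalisation. A fold given for a dim probe uses, for the dim group, the lowest level of a probe well above background or the probe's own level, whichever is higher. It makes no allowance for the spread between arrays. The limma model held 3 genotype effects and a dye effect over all 6 arrays, with 2 residual degrees of freedom and a prior of 5.37. Thresholds were those of the study's methods. The dye effect also acts as the replicate block, since knockout RNA was in Cy5 on replicate 1 and in Cy3 on replicate 2 throughout. Deviations of same-numbered arrays from their genotype means correlated at 0.316, 0.244 and 0.125 across probes, so the numbers were treated as pairing the arrays. Culture batch and dye cannot be told apart in this design. The number of arrays limits the precision.

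Probes were named through RefSeq accessions with a table for GRCm38.p6, which named 28331 of 29786 probes with such an accession. The promoter windows are from RefSeq on the same build. Probe and protein sequences were not used here. The 10 Sox genes were all named, by their probe of highest mean level, and of the other lists those called, or otherwise the 2 largest in dcKO cells. For likeness, the 5 named genes of highest correlation were given, among genes well above background in the wild-type channel of all 6 arrays and with an absolute log2 ratio above 1 in at least 1 genotype. Genes, lists and tests were chosen with earlier results of these data known. The model was tested on simulated data.

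Alternatives were an offset of 50, Feature Extraction's processed intensities, median centring, no replicate block, the dye effect subtracted first, a filter on dim probes, outlier spots kept, the authors' log2 ratios, each genotype's own arrays, the mean over a gene's probes and each array left out. A fit of separate channels was added after the data were seen.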

Additional observations from a re-analysis of the deposited data

Results flagged for a closer look

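Among the wild-type levels of the 10 Sox genes over the 6 arrays, 2 had a sample far from the others by Dixon's ratio of gap to range. About 1 in 20 such groups is expected to be marked by chance. For *Sox21* the wild-type channel of Sox11 cKO replicate 2 was highest, with a ratio of 0.724 and a level of 6.74, against 6.20 to 6.35 on the other arrays. The knockout level on that array was 6.32, so its log2 ratio of -0.42 goes with a high wild-type channel. For *Sox6* the wild-type channel of dcKO replicate 1 was lowest, with a ratio of 0.669 and a level of 4.39. That probe was at background in every channel.

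The loss of a targeted gene also differed between genotypes by the test of the difference itself. *Sox11* was lower in dcKO than in Sox4 cKO cells by -3.36, and *Sox4* was lower in dcKO than in Sox11 cKO cells by -2.38. In both cases the gene was deleted in 1 genotype of the pair and not in the other.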

How the results depend on the processing

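Counts of called Sox probes changed with the processing, while no called value changed sign. An offset of 50 gave 0 called in Sox4 cKO, 0 in Sox11 cKO and 1 in dcKO cells, 0 between dcKO and Sox4 cKO and 0 between dcKO and Sox11 cKO cells. Of all 55681 probes it called 3, 0, 78, 0 and 0 in that order. Feature Extraction's processed signals gave 0 in each of the 3 genotypes and in these 2 contrasts. They called 0 of all 55681 probes there too, so these lost calls are not particular to the Sox probes. Without the replicate block there were 0 in Sox11 cKO cells, 0 between dcKO and Sox4 cKO and 1 between dcKO and Sox11 cKO cells. Over all probes that setting called 18, 97 and 88. The filter on dim probes also gave 0, 0 and 1 in that order, beside 21, 159 and 106 of 26116 probes. In Sox11 cKO cells 0 were called with the dye effect subtracted first and 0 in a fit to their own arrays, while the authors' log2 ratios and separate channels gave 2 each. All-probe calls there were 32 with the dye effect subtracted first, 129 with the authors' ratios and 12 with separate channels. Between dcKO and Sox4 cKO cells, median centring and the authors' log2 ratios gave 3 each and separate channels gave 0, beside 1118, 664 and 63 over all probes. Between Sox4 cKO and Sox11 cKO cells, median centring gave 2, the authors' log2 ratios 4 and separate channels 1, beside 17, 137 and 3.

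With 1 array left out, called Sox probes ranged from 0 to 3 in Sox4 cKO, from 0 to 2 in Sox11 cKO and from 1 to 4 in dcKO cells. They ranged from 0 to 3 between dcKO and Sox4 cKO, from 0 to 2 between dcKO and Sox11 cKO, from 0 to 4 between Sox4 cKO and Sox11 cKO cells, and from 0 to 1 for the departure from the sum. The counts above the reported ones came without Sox11 cKO replicate 1 or 2, and in Sox11 cKO cells also without a Sox4 cKO array. A lone array left in a genotype is assumed to vary like the other genotypes, and its dye effect is taken from their arrays.

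Of 1073 single-gene values under an alternative, 983 kept their direction. None of the 90 that did not was called in either setting. A call was lost in 32 and gained in 20. *Sox11* in Sox11 cKO cells kept its call under 8 of 17 alternatives (limma adjusted p 0.000952 to 0.626) and *Sox15* in Sox4 cKO cells gained one under 4 of 16 (limma adjusted p 0.00189 to 1.00). The cause was not tested. The planned use of mean spot signals was not run. Signal over background limits *Sox12*, *Sox2*, *Sox6* and *Sox7*.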
